A study of Mus musculus with 14 samples.

Results

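Macrophage and neutrophil genes were followed through 14 ChIP-seq peak lists from mouse kidneys. The 53 genes were listed by name, with earlier results of these data known, and all 53 were found among the 21887 protein-coding genes of the RefSeq annotation of GRCm38.p6, which holds 49943 genes in all. Macrophages take up debris and microbes and depend on the growth factor Csf1 and its receptor, and the transcription factor PU.1, the product of Spi1, directs their development and that of neutrophils. Both cell types kill microbes with an NADPH oxidase and sense antibody-coated particles through Fc receptors. In the kidney, macrophages live between the tubules, and more leukocytes enter after the ureter is obstructed.

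The study compared H3K9cr, the crotonylation of lysine 9 of histone H3, with acetylation of the same residue (H3K9ac) in fibrotic kidneys. ACSS2 is an enzyme that makes acetyl-CoA and crotonyl-CoA from the free acids, and the ACSS2-/- mice carry a deletion made with CRISPR/Cas9 in every cell. Kidneys came from wild-type (WT) and ACSS2-/- mice, either control or after unilateral ureteric obstruction (UUO), in which the left ureter is tied and cut and the kidney scars. The methods describe a sham operation, and the labels say only control. Each of the 4 groups had 2 H3K9cr libraries. For H3K9ac there were 2 per genotype after UUO but 1 per genotype in control kidneys, without a replicate. The tissue was whole kidney, in which the number of cells of a type and the amount of mark per cell cannot be told apart.

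Each gene was scored by the bases that peaks covered within 3 kb of either of its ends, its cover. A gene was said to differ between groups when the ranges of its cover did not overlap, and the share of all protein-coding genes that did so is given beside the main counts. The lists hold positions without heights, so cover measures where signal passed the authors' threshold. Read depth is unknown from the lists. An H3K9cr list covered between 29.4 Mb in ACSS2-/- UUO replicate 2 and 64.6 Mb in ACSS2-/- control replicate 1. The H3K9ac lists covered between 17.7 Mb in WT UUO replicate 1 and 51.1 Mb in the ACSS2-/- control library.

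Some libraries stood apart from others of their group. The peak names of 4 lists carry a number other than that of their label. These were the H3K9cr replicates 1 of both genotypes after UUO, and the H3K9ac pair of ACSS2-/- UUO kidneys. In UUO kidneys, H3K9cr replicate 1 of both genotypes had peaks on the Y chromosome, 5 in WT and 14 in ACSS2-/-, and replicate 2 of both had 0. For H3K9ac after UUO, ACSS2-/- replicate 2 had 13 such peaks and the other 3 libraries had 0. The H3K9ac control libraries had 4 in WT and 3 in ACSS2-/- kidneys. Both ACSS2-/- control replicate 2 libraries had peaks on the Y chromosome and at Xist, the RNA that silences an X chromosome in female cells. In WT control H3K9cr, replicate 1 had 0 peaks on the Y chromosome and 2059 bases covered at Xist, and replicate 2 had 5 and 0. H3K9cr of the genotypes in UUO is therefore also compared below among libraries with, and among libraries without, peaks on the Y chromosome. No such comparison was made for H3K9ac, in which both control libraries had these peaks and most UUO libraries had none.

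Acss2 itself had peaks at its gene ends in all 14 libraries. In H3K9cr, its cover was 1279 and 1334 bases in WT control, 2719 and 913 in ACSS2-/- control, 1069 and 1080 in WT UUO, and 799 and 1583 in ACSS2-/- UUO kidneys. In H3K9ac, it was 2319 in WT control, 2823 in ACSS2-/- control, 869 and 1530 in WT UUO, and 760 and 1229 in ACSS2-/- UUO kidneys. The ranges of the genotypes overlapped in UUO for both marks and in control kidneys for H3K9cr. Peaks at gene ends can remain when another piece of a gene is deleted, so these values do not check the genotype labels.

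More of the listed genes carried H3K9cr after UUO than in control kidneys. A peak lay at 16 and 19 of the 53 genes in the WT control libraries, at 24 and 18 in ACSS2-/- control, at 39 and 32 in WT UUO, and at 35 and 26 in ACSS2-/- UUO. Every UUO library thus had more of them than every control library, with 33 ± 5.48 (SD, n = 4) against 19.3 ± 3.40 (SD, n = 4). Over all protein-coding genes the same libraries hardly differed, with a peak at 59.0% to 62.2% of genes in control and at 58.9% to 62.2% in UUO libraries. The H3K9ac lists had a peak at 18 and 20 of the 53 genes in control kidneys, and at 24, 29, 22 and 33 in WT UUO replicates 1 and 2 and ACSS2-/- UUO replicates 1 and 2. Over all protein-coding genes, H3K9ac had a peak at 59.0% and 62.5% in control and at 53.0%, 55.6%, 54.1% and 60.0% in these UUO libraries. The members covered 44.2 ± 7.46 kb in control and 81.0 ± 22.0 kb in UUO H3K9cr libraries (SD, n = 4 each), while the whole lists covered 50.6 ± 10.1 Mb and 37.2 ± 6.47 Mb.

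**Figure D1:**
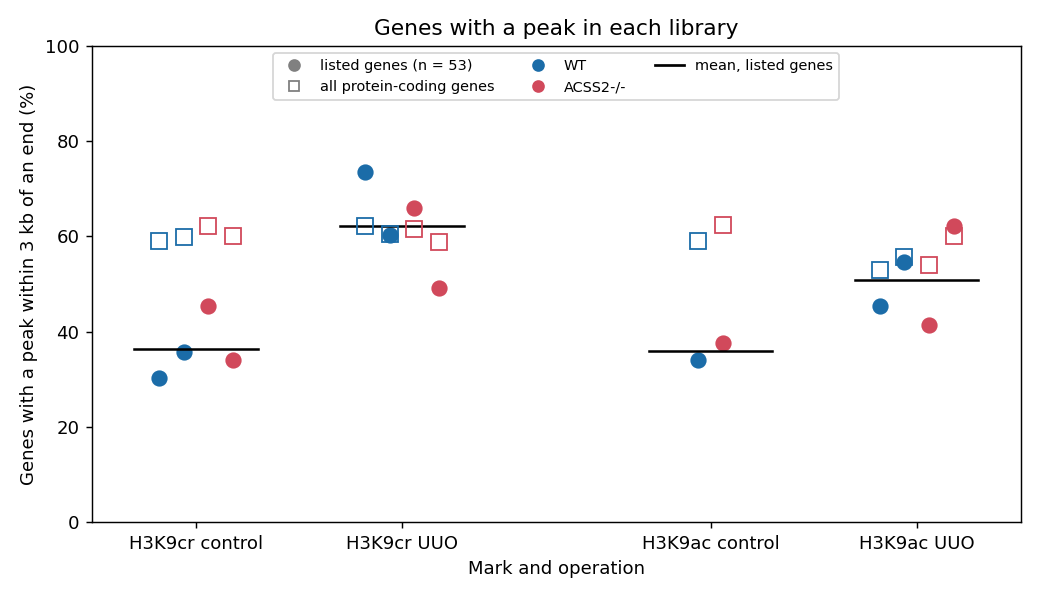
Genes with a peak within 3 kb of an end, in percent, for the 53 listed genes (filled circles) and all protein-coding genes (open squares) in each of the 14 libraries, by mark and operation; colours give the genotype and black lines the mean over the listed genes. The 4 UUO H3K9cr libraries lie between 49.1% and 73.6% for the listed genes, all above the 30.2% to 45.3% of the controls, while the squares stay between 58.9% and 62.2%.

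In H3K9cr, 11 of the 53 genes had more cover in every UUO library than in every control library, against 1.54% of all protein-coding genes. These were Csf1, Csf2rb, Itgax, Aif1, Laptm5, Coro1a, Cd52, Fcgr1, Cd14, Cyba and Ncf4. No listed gene had less, against 8.81% of all protein-coding genes. The median difference in mean cover was 401.75 bases over the 53 genes and 0 over all protein-coding genes, and the mean was higher in UUO for 67.9% of the former and 21.0% of the latter. With 4 libraries against 4, the two-sided exact permutation test cannot give a p below 0.0286, which each of the 11 genes reached. After Benjamini-Hochberg adjustment over all 21887 genes no gene passed, with a smallest adjusted p of 0.276 by the exact permutation test. At an unadjusted p under 0.05, 2266 genes did. The 11 genes are therefore given as values and not as calls of a change. When cover was divided by the length of the whole list, 17 listed genes were higher and 0 lower, with 10.9% and 1.82% of all protein-coding genes. By this share Csf1r, Csf3r, Spi1, Cebpb, Cd68 and Sirpa were added to the 11. With windows of 1 kb, Csf1 and Coro1a overlapped, and Csf1r and Csf2ra separated. Over the whole gene Csf1 and Cyba overlapped, and Spi1 and Cd80 separated. With equal numbers of the longest peaks, Csf2rb, Itgax, Aif1, Fcgr1, Cd14 and Cyba overlapped, and Spi1 separated. By number of peaks, Csf1, Aif1, Laptm5, Coro1a, Cd14 and Cyba overlapped. In WT libraries alone, 26 listed genes were higher without overlap and 1 was lower, with 14.7% and 16.0% of protein-coding genes. In ACSS2-/- libraries alone, 15 were higher and 3 lower, with 3.44% and 33.0%. Without ACSS2-/- UUO replicate 2, the lowest of the UUO libraries, 19 listed genes were higher, with 4.10% of protein-coding genes. With only the libraries that had peaks on the Y chromosome, 26 were higher, with 7.36%.

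**Figure D2:**
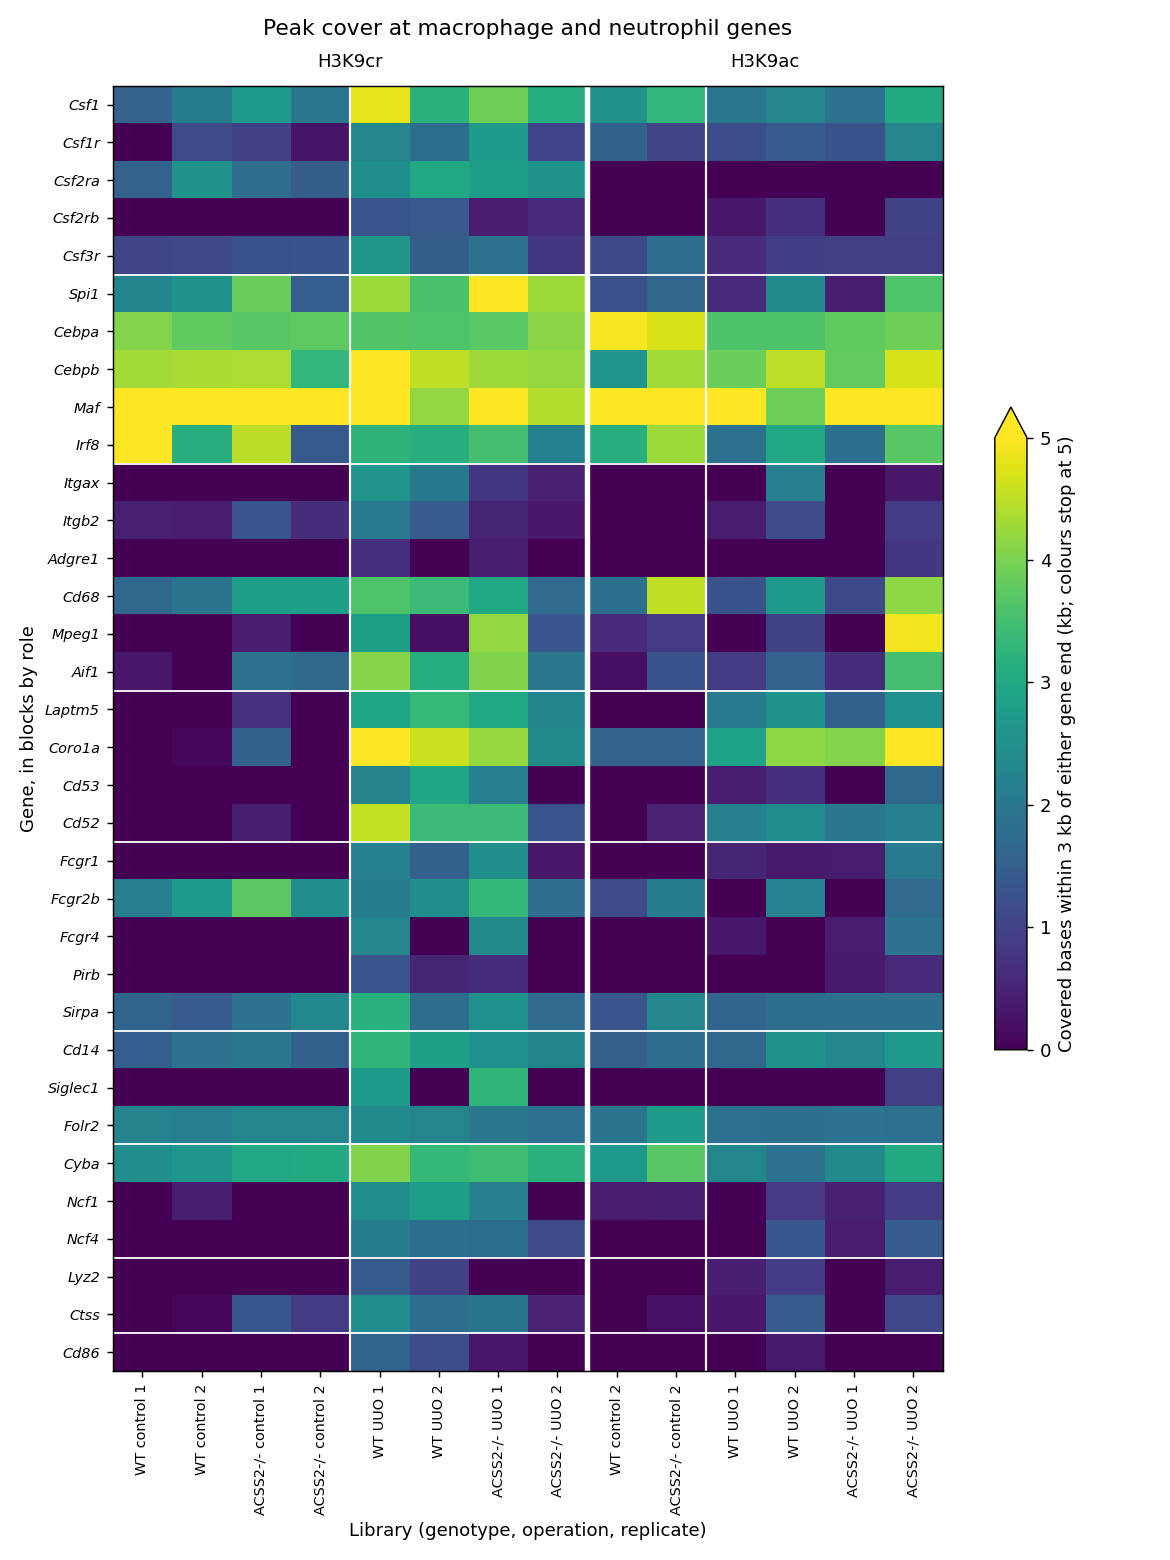
Cover in kb within 3 kb of either gene end for the 34 listed genes with a peak in at least 3 libraries (rows, in blocks by role) in the 14 libraries (columns), with colours that stop at 5 kb. White lines part control from UUO and H3K9cr from H3K9ac, and Laptm5, Coro1a and Cd52 show the clearest step between control and UUO in both marks.

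Among the growth factors and their receptors, Csf1 and Csf2rb had more H3K9cr in every UUO library. Csf1, the growth factor that keeps macrophages alive, had a cover of 4809 and 3209 bases in WT UUO and 3905 and 3105 in ACSS2-/- UUO kidneys, against 1570 and 2104 in WT control and 2704 and 1971 in ACSS2-/- control. Its mean of 3757 ± 786 was 1.80 times the control mean of 2087 ± 470 (SD, n = 4 each). Cover around the annotated start of Csf1, on its own, overlapped between the groups, at 1464 to 2198 bases in control and 1713 to 2196 in UUO. With the whole gene scored, Csf1 overlapped too, with 3105 bases in ACSS2-/- UUO replicate 2 and 3304 in ACSS2-/- control replicate 1. Csf2rb, the signalling chain shared by the receptors for GM-CSF and interleukin 3, had 1339 and 1389 bases in WT UUO, 404 and 641 in ACSS2-/- UUO and no peak in the 4 control libraries.

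Csf1r, the receptor for Csf1, separated less clearly. Its H3K9cr cover was 2269 and 1816 bases in WT UUO, 2719 and 1000 in ACSS2-/- UUO, 0 and 1164 in WT control, and 956 and 299 in ACSS2-/- control kidneys. ACSS2-/- UUO replicate 2 lay below WT control replicate 2, so the groups overlapped. With the whole gene scored they overlapped too, at 1760 to 3356 bases in UUO and 389 to 4809 in control. Csf1r had H3K9ac in all 6 lists, between 1022 and 2271 bases. Csf3r, the receptor for the neutrophil growth factor G-CSF, had peaks of both marks in every library, but most lay past its far end, in the window shared with Mrps15. Around its start, Csf3r had 1388 and 320 bases of H3K9cr in WT UUO, 772 and 0 in ACSS2-/- UUO and 0 in control kidneys, and no H3K9ac in any library. Csf2ra, the ligand-binding chain of the GM-CSF receptor, had H3K9cr in all 8 lists, between 1472 and 2979 bases, and H3K9ac in none of 6. Flt3, the receptor of early progenitors and dendritic cells, had a peak at its ends in WT UUO H3K9cr replicate 1 only. With the whole gene scored, it also had 1202 bases in ACSS2-/- UUO replicate 1.

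The 5 transcription factor genes carried peaks in all 14 libraries, and none separated UUO from control in H3K9cr within 3 kb of the ends. They are expressed outside leukocytes as well, apart from Spi1 and Irf8, which are mainly leukocyte genes. Spi1 came closest, with 4263 and 3566 bases in WT UUO, 5644 and 4269 in ACSS2-/- UUO, 2258 and 2545 in WT control, and 3854 and 1503 in ACSS2-/- control kidneys. WT UUO replicate 2 lay below ACSS2-/- control replicate 1. With either of these libraries left out, the groups did not overlap. Cebpa and Cebpb, factors of myeloid and also of liver cells, had 3631 to 4127 and 4200 to 4993 bases in UUO against 3705 to 4077 and 3311 to 4391 in control. Maf, with a cover of 67.0% of its window over the 14 libraries, was the most covered listed gene per window length. Its H3K9cr cover was 4186 to 7473 bases in UUO and 7089 to 8305 in control kidneys. Irf8, a factor of monocytes and dendritic cells, had 2196 to 3532 and 1412 to 5599 bases.

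Of the 8 integrins and general macrophage genes, Aif1 and Itgax were higher without overlap. Aif1, which encodes the actin-binding protein IBA1 used to stain macrophages, had 4087 and 3103 bases in WT UUO, 4049 and 2010 in ACSS2-/- UUO, 329 and 0 in WT control, and 1887 and 1721 in ACSS2-/- control kidneys. Its window overlaps that of the neighbouring gene Prrc2a. Itgax, the integrin CD11c of dendritic cells and some macrophages, had 2600 and 2017 bases in WT UUO, 815 and 436 in ACSS2-/- UUO and no peak in control kidneys.

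The genes most used to define macrophages were uneven. Adgre1, which encodes F4/80, had H3K9cr in replicate 1 of each UUO group only, at 674 bases in WT and 429 in ACSS2-/- kidneys. Its single H3K9ac peak set was in ACSS2-/- UUO replicate 2, with 797 bases. Itgam, the integrin CD11b of monocytes, macrophages and neutrophils, had no peak in any library. Cd68, a lysosomal glycoprotein, had 3621 and 3406 bases of H3K9cr in WT UUO, 3000 and 1755 in ACSS2-/- UUO, 1687 and 1926 in WT control, and 2778 and 2811 in ACSS2-/- control kidneys. The window of Cd68 is shared with Eif4a1 and Mpdu1, which are expressed in most cells. Itgb2, the beta chain that pairs with CD11b and CD11c, had 2077 and 1461 bases in WT UUO and 447 and 405 in WT control, but 516 and 333 in ACSS2-/- UUO and 1326 and 663 in ACSS2-/- control kidneys. These sums join different places, since control peaks lay only past the higher-numbered end of Itgb2. At its lower-numbered end, peaks of 1565 and 1461 bases lay in WT UUO and of 468 and 333 in ACSS2-/- UUO, and none in control libraries. Mpeg1, a pore-forming protein of phagocytes, ranged from 205 to 4188 bases in UUO and from 0 to 398 in control kidneys.

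General leukocyte genes showed the largest differences. Coro1a, an actin regulator of blood cells, had 5015 and 4601 bases of H3K9cr in WT UUO, 4218 and 2389 in ACSS2-/- UUO, 0 and 60 in WT control, and 1556 and 0 in ACSS2-/- control kidneys. Cd52, a short surface glycoprotein of lymphocytes and monocytes, had 4542 and 3417 bases in WT UUO, 3400 and 1321 in ACSS2-/- UUO, 0 in both WT control libraries, and 418 and 0 in ACSS2-/- control. Laptm5, a lysosomal protein of blood cells, had 2935 and 3357 bases in WT UUO, 2996 and 2260 in ACSS2-/- UUO, 0 in both WT control libraries, and 705 and 0 in ACSS2-/- control. For these 3 genes, the mean in UUO was 10.0, 30.3 and 16.4 times that in control kidneys, where all libraries but ACSS2-/- control replicate 1 had 0 to 60 bases. Cd53, a tetraspanin of leukocytes, had 2245, 2944 and 2132 bases in 3 UUO libraries and 0 in ACSS2-/- UUO replicate 2 and in all controls. Coro1a shares its window with Slx1b and Bola2, and Cd52 with Crybg2.

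Among the Fc and inhibitory receptors, Fcgr1 alone separated the groups. This high-affinity receptor for IgG had 2196 and 1534 bases of H3K9cr in WT UUO, 2489 and 315 in ACSS2-/- UUO and no peak in control kidneys. Fcgr4, an activating receptor, had 2270 and 2362 bases in replicate 1 of WT and ACSS2-/- UUO and none in replicate 2 of either. Fcgr2b, the inhibitory Fc receptor that B cells and macrophages share, had peaks in all 8 H3K9cr libraries with overlapping ranges of 1788 to 3326 bases in UUO and 2148 to 3732 in control. Pirb, an inhibitory receptor for class I molecules, had between 0 and 1323 bases in UUO and 0 in control, and Sirpa, which binds the don't-eat-me signal CD47, had 1739 to 3190 and 1426 to 2327.

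Cd14 was the only pattern recognition or scavenger receptor of 10 that separated the groups. This co-receptor for bacterial lipopolysaccharide had 3274 and 2842 bases of H3K9cr in WT UUO, 2501 and 2251 in ACSS2-/- UUO, 1494 and 1896 in WT control, and 2011 and 1553 in ACSS2-/- control kidneys. The mean in UUO was 1.56 times that in control. Siglec1, a sialic acid receptor of macrophages, had 2747 and 3300 bases in replicate 1 of WT and ACSS2-/- UUO and 0 elsewhere in H3K9cr. Mrc1, the mannose receptor, had 450 bases in WT UUO replicate 1. Clec7a, the receptor for fungal beta-glucan, had 394 in WT UUO replicate 2. Timd4, a receptor for dying cells on resident macrophages, had 514 bases in ACSS2-/- control replicate 1 and was the only listed gene with H3K9cr in control and not in UUO libraries.

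Of the 3 NADPH oxidase subunit genes, Ncf4 and Cyba separated the groups. Ncf4, the cytosolic p40phox subunit, had 2125 and 1830 bases of H3K9cr in WT UUO, 1797 and 1153 in ACSS2-/- UUO and no peak in control kidneys. Cyba, the membrane subunit p22phox that kidney epithelium also uses, had 4058 and 3326 bases in WT UUO, 3445 and 3201 in ACSS2-/- UUO, 2451 and 2635 in WT control, and 2982 and 3028 in ACSS2-/- control. The difference for Cyba was small, 1.26 times, and its window also takes in ends of Mvd and Il17c. Ncf1, the p47phox organiser, had 2475, 2793 and 2172 bases in 3 UUO libraries, 0 in ACSS2-/- UUO replicate 2, and 0 to 425 in control.

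No gene of the remaining roles separated the groups. Lyz2, the lysozyme of macrophages and neutrophils, had 1413 and 978 bases of H3K9cr in WT UUO kidneys and 0 in all other H3K9cr libraries. Ctss, a lysosomal protease, had 473 to 2455 bases in UUO and 0 to 1348 in control, and Trem2, a lipid receptor of macrophages, had 792 bases in ACSS2-/- UUO replicate 1 only. Within 3 kb of its ends, Cd86, a ligand that co-stimulates T cells, had 1637 and 1193 bases in WT UUO, 332 and 0 in ACSS2-/- UUO and 0 in control. Cd80 had 425 there in WT UUO replicate 1 only. With the whole gene scored, Cd86 had H3K9cr in all 8 libraries, with 2483 and 1193 bases in WT UUO and 671 and 550 in ACSS2-/- UUO. In control it had 346 and 834 bases in WT and 2116 and 832 in ACSS2-/- kidneys. Cd80 then had 1050 to 1972 bases in UUO and 694 to 1002 in control.

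Of the 53 genes, 11 had no peak at their ends in any library, namely Itgam, Fcgr3, Marco, Msr1, Cd163, Lyve1, Lyz1, Gpnmb, S100a8, S100a9 and Nos2. These include the neutrophil calprotectin genes S100a8 and S100a9, the scavenger receptors Marco, Msr1 and Cd163, and Nos2, the inducible nitric oxide synthase. For Fcgr3, Nos2, Msr1 and Cd163, peaks lay inside the gene, farther than 3 kb from the ends. Fcgr3 has an annotated inner start there, and of the 300 bases around it (chr1:171059345-171059644, minus strand), H3K9cr peaks covered 223 in WT UUO replicate 1 and 300 in ACSS2-/- UUO replicate 1. With the whole gene scored, Fcgr3 had 993 and 1291 bases of H3K9cr in WT UUO, 1822 and 0 in ACSS2-/- UUO and 0 in control kidneys. A gene without a peak may still carry signal under the authors' threshold.

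A peak in all 4 UUO and in none of the 4 control H3K9cr libraries was found at 4 listed genes, Csf2rb, Itgax, Fcgr1 and Ncf4, against 0.434% of all protein-coding genes. The reverse was found at 0 listed genes, against 0.270%. In WT libraries alone the number was 11 and in ACSS2-/- libraries alone 4, with 2.01% and 0.758% of protein-coding genes. With only the libraries that had peaks on the Y chromosome it was 11, with 1.32%. Ncf4 and Csf2rb lie near each other on chromosome 15, with Csf2rb2, a close relative of Csf2rb, between them. From 78239164 to 78356001 (mm10), a stretch of 116.8 kb, the 6 control libraries of both marks held no peak. In each UUO H3K9cr library, peaks lay within Ncf4 near its lower-numbered end, farther inside the gene between 78257277 and 78258813, at the higher-numbered end of Csf2rb2 and at the lower-numbered end of Csf2rb. H3K9ac varied between libraries. ACSS2-/- UUO replicate 2 had peaks at all of these places, and WT UUO replicate 2 in Ncf4 near its lower-numbered end and at Csf2rb. WT UUO replicate 1 had only the peak at Csf2rb, from 78326251 to 78326566, and ACSS2-/- UUO replicate 1 only the peak in Ncf4, from 78245502 to 78245901.

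**Figure D3:**
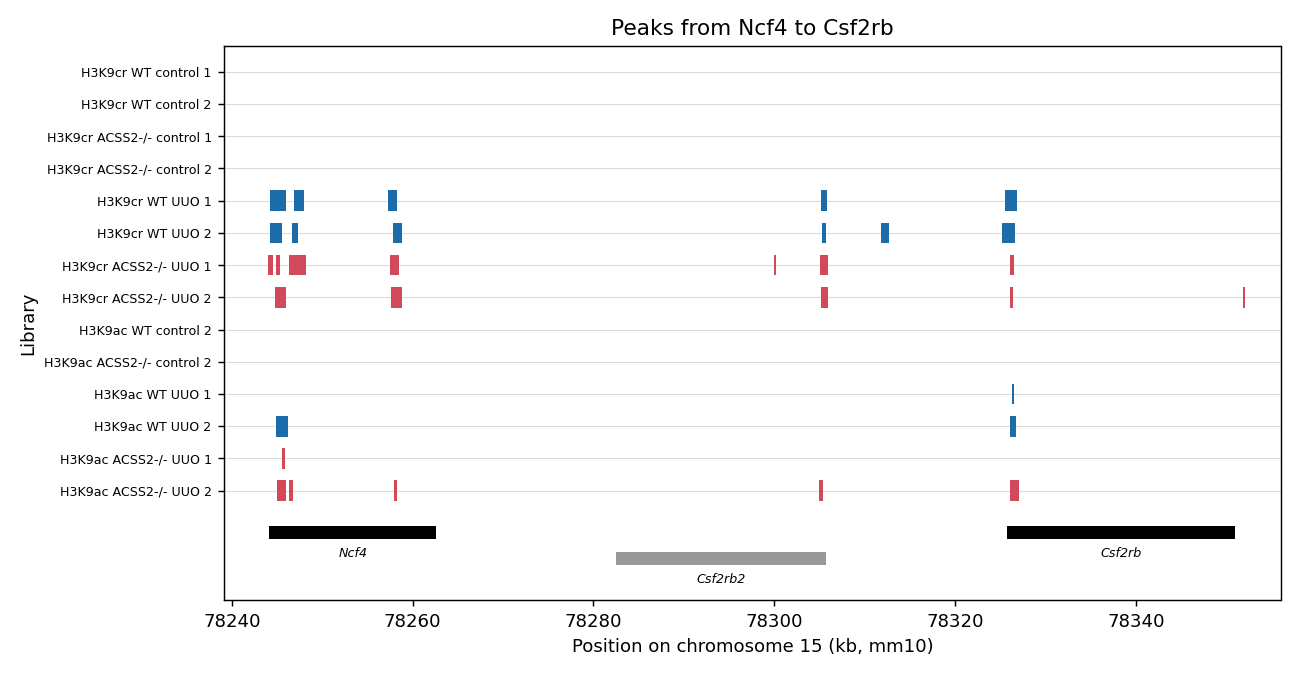
Peaks (coloured boxes, blue for WT and red for ACSS2-/-) of the 14 libraries in 116.8 kb of chromosome 15, with positions in kb and the protein-coding genes drawn to scale at the bottom. The control rows are empty, and all 4 UUO H3K9cr rows have boxes at Ncf4, Csf2rb2 and Csf2rb.

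In H3K9ac, 4 of the 53 genes had more cover in each of the 4 UUO libraries than in both control libraries, against 0.233% of all protein-coding genes. They were Laptm5, Coro1a, Cd52 and Fcgr1, which were among the 11 with more H3K9cr. Another 4 had less, Csf3r, Cebpa, Maf and Folr2, against 30% of all protein-coding genes. Laptm5 had 2034 and 2581 bases of H3K9ac in WT UUO, 1533 and 2538 in ACSS2-/- UUO and 0 in both control libraries. Coro1a had 2896 and 4154 in WT UUO, 4067 and 5569 in ACSS2-/- UUO, 1599 in WT control and 1588 in ACSS2-/- control. Cd52 had 1984 to 2432 bases in UUO against 0 and 496 in control, and Fcgr1 had 361 to 2041 against 0. In WT UUO replicate 1 the Fcgr1 peak lay past its far end, and with cover at the start alone, 0 in that library, the groups overlapped. Maf had 5136 and 3892 in WT UUO, 5456 and 7198 in ACSS2-/- UUO, and 8519 and 9439 in control kidneys. With 4 libraries against 2, the exact permutation test cannot go below p = 0.0667 (two-sided), and the smallest adjusted p over all protein-coding genes was 0.285. No protein-coding gene had an unadjusted p under 0.05. When cover was divided by the length of the whole list, 13 listed genes were higher and 0 lower, with 18.9% and 4.21% of protein-coding genes. In WT libraries alone, 13 were higher and 8 lower, with 3.3% and 48.7%, and in ACSS2-/- libraries alone 10 and 10, with 1.11% and 53.8%. The higher genes were 8 (1.65%) without the ACSS2-/- control library, 9 (0.525%) without ACSS2-/- UUO replicate 1 and 7 (0.484%) without WT UUO replicate 1. The lower ones were 9 (52.9%) without the WT control library and 7 (44.8%) without ACSS2-/- UUO replicate 2.

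H3K9ac cover at the listed genes varied widely among UUO libraries. The members covered 38.4 and 56.8 kb in WT UUO replicates 1 and 2, and 39.1 and 78.5 kb in ACSS2-/- UUO replicates 1 and 2, against 38.9 and 52.5 kb in the WT and ACSS2-/- control libraries. ACSS2-/- UUO replicate 2 was highest, with 4898 bases at Mpeg1 where WT UUO had 0 and 990. This library also covered the most of the 4, 30.9 Mb. For each Mb that a list covered, the members took 2027 to 2673 bases in UUO and 1027 to 1136 in control H3K9ac libraries, and 1765 to 2333 in UUO and 778 to 956 in control H3K9cr libraries.

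In UUO kidneys, 14 listed genes had less H3K9cr in both ACSS2-/- libraries than in both WT libraries, and 16.4% of all protein-coding genes did so. They were Csf2rb, Cebpb, Itgax, Itgb2, Cd68, Coro1a, Cd53, Cd52, Cd14, Folr2, Ncf1, Ncf4, Lyz2 and Cd86. More was found at 2, Spi1 and Cebpa, against 5.43%. The median difference between the genotype means was -270 bases over the 53 genes and 0 over all protein-coding genes. With 2 libraries against 2, the exact permutation test cannot give a two-sided p below 0.333, and no gene passed adjustment or an unadjusted p under 0.05. ACSS2-/- UUO replicate 2 had the shortest H3K9cr list of all 8 and WT UUO replicate 1 the longest of the UUO lists. When cover was divided by the length of the whole list, 11 listed genes were lower and 1 higher, with 7.26% and 12.8% of all protein-coding genes. The lower genes were 9 (15%) with windows of 1 kb and 3 (2.22%) by number of peaks. At the gene start, scored for 37 members only, they were 6 (16.1%).

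Between the UUO H3K9cr libraries with peaks on the Y chromosome (replicate 1 of each genotype), 27 listed genes were lower in ACSS2-/- than in WT UUO and 13 were higher, while 38.7% of protein-coding genes were lower and 25.4% higher. Between those without (replicate 2), 28 were lower and 4 higher, with 40.1% and 22.2% of protein-coding genes. In both of these comparisons, 21 listed genes were lower and 3 higher, with 25.1% and 9.76% of protein-coding genes. Itgax and Csf2rb were among the lower ones, with values given above. The 3 higher ones were Spi1, Cebpa and Mpeg1, and Mpeg1 had 1344 bases in ACSS2-/- and 205 in WT UUO replicate 2. Fcgr1, Csf1r, Siglec1 and Fcgr4 were higher in ACSS2-/- than in WT UUO within replicate 1 only. Without ACSS2-/- UUO replicate 1, 26 listed genes were lower, and without WT UUO replicate 2, 27 were, with 35.8% and 35.1% of protein-coding genes. Without ACSS2-/- UUO replicate 2, 11 were higher, with 20.7%, and without WT UUO replicate 1, 4 were, with 17.4%.

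The marks were not tested against each other for the effect of genotype. In UUO, 2 listed genes had less H3K9ac in both ACSS2-/- libraries, Cd52 and Lyz2, against 1.66% of protein-coding genes. Another 8 had more, Csf3r, Cebpa, Maf, Fcgr4, Pirb, Sirpa, Folr2 and Cyba, against 18.3%. The smallest two-sided p of the exact permutation test was again 0.333. When cover was divided by the length of the whole list, 5 listed genes were lower and 2 higher, with 12% and 7.38% of protein-coding genes. Without ACSS2-/- UUO replicate 2, 13 were lower, with 17.5%, and without replicate 1, 26 were higher, with 49.5%. Without WT UUO replicate 1, 8 were lower, with 8.39%, and without replicate 2, 13 were higher, with 32.7%.

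In control kidneys, 9 listed genes had more H3K9cr in both ACSS2-/- than in both WT libraries, against 25.3% of protein-coding genes. They were Csf3r, Maf, Itgb2, Cd68, Aif1, Sirpa, Folr2, Cyba and Ctss. Cebpa had less, against 3.18%. Ctss had 1348 and 887 bases in ACSS2-/- and 0 and 86 in WT control kidneys. ACSS2-/- control lists covered 58.0 ± 9.34 Mb and WT control lists 43.3 ± 2.13 Mb (SD, n = 2 each), and with cover divided by these lengths 4 listed genes were higher and 7 lower, with 4.86% and 24.4% of protein-coding genes. More listed genes were higher without this scaling and more were lower with it. In the H3K9ac control lists, with 1 library per genotype and no replicate, Cd68 had 4513 bases in ACSS2-/- and 1855 in WT kidneys.

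The effects of UUO on H3K9cr in the 2 genotypes had opposite directions, without overlap of UUO and control in either, at 2 listed genes, Itgb2 and Folr2, against 4.24% of all protein-coding genes. For Itgb2 the difference between UUO and control means was 1343 bases in WT and -570 in ACSS2-/- kidneys. At its lower-numbered end alone, however, both genotypes had peaks in UUO and none in control. Folr2, a folate receptor of resident macrophages, had a difference of 143.5 and -360.5 bases, and shares its window with Folr1, a folate receptor of the proximal tubule, and Inppl1. Around the start of Folr2 no library of either mark had a peak, and all of its H3K9cr lay at its far end. An exact permutation of the genotypes within operation, with 36 arrangements, gave 0.0556 for both, its minimum (two-sided). Cd68 and Cebpa reached the same p, but their UUO and control ranges overlapped in ACSS2-/- kidneys, with a difference between the effects of 2124 and -487 bases. Neither Itgb2 nor Folr2 had opposite directions when cover was divided by the length of the whole list, under which 3.03% of protein-coding genes did.

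In UUO kidneys, 3 listed genes had more H3K9cr than H3K9ac cover in every library, Csf1, Csf2ra and Cyba, against 6.35% of all protein-coding genes, and none had less, against 1.10%. Per the paper the H3K9ac libraries used the same samples as the H3K9cr ones, and the peak names number the ACSS2-/- UUO libraries of the marks crosswise. The exact test here takes the libraries as unpaired. With libraries paired by replicate number, 6 listed genes had more H3K9cr, with 10.5% of protein-coding genes, and with the ACSS2-/- pairs crossed 9, with 15%. Both counts keep WT UUO replicate 1 of either mark as a pair. The peak names of this pair carry 3 for H3K9cr and 1 for H3K9ac, with 5 and 0 peaks on the Y chromosome. Whether it shares a sample is therefore not known. The marks were measured with different antibodies, so that cover compares what passed a threshold for each. In UUO the H3K9cr lists covered more on average, 37.2 against 22.3 Mb. Between the ACSS2-/- UUO lists labelled replicate 2, however, the H3K9ac list covered more, 30.9 against 29.4 Mb. With the ACSS2-/- pairs crossed, the H3K9cr list covered more in both, 39.7 against 30.9 and 29.4 against 19.3 Mb. The exact permutation test gave its smallest two-sided p of 0.0286 at 1630 protein-coding genes and no gene passed adjustment, with a smallest adjusted p of 0.384. In WT UUO libraries alone, 26 listed genes had more H3K9cr, with 34.1% of protein-coding genes, and in ACSS2-/- UUO libraries alone 6, with 10.9%. A peak was seen in at least 1 library at 42 listed genes for H3K9cr and at 34 for H3K9ac. Within 3 kb of the ends, 8 genes had H3K9cr and never H3K9ac, and of these Csf2ra alone had H3K9cr in more than 2 libraries. Cd80 is one of the 8, but with the whole gene scored it had H3K9cr in all 8 lists and H3K9ac in all 6.

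Promoter sequences of 37 of the 53 genes were found in the RefSeq table of GRCm38.p6, from 250 bases before to 50 after a gene start. They were searched on both strands for GAGGAA, the core of the sites that PU.1 binds, for TTGCNNAA, a site form of C/EBP factors, and for TATAAA, the TATA box. GAGGAA was present in promoters of 18 of the 37 genes (48.6%) and of 31.3% of all genes in the table. TTGCNNAA was present at 5 of 37 (13.5%) against 12.2%, and TATAAA at 9 of 37 (24.3%) against 15.7%. A match describes the letters in this window and does not show binding.

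The promoters of Laptm5, Fcgr1, Coro1a and Itgax are printed because peaks covered them in UUO and in no or few control libraries. Capitals mark TATAAA on the printed strand and TTCCTC, which is GAGGAA on the other strand. Of the 300 bases at Laptm5, at chr4:130913066-130913365 on the plus strand, H3K9cr peaks covered 37 and 300 in WT UUO, 300 and 4 in ACSS2-/- UUO and 0 in control libraries. At Fcgr1, at chr3:96293920-96294219 on the minus strand, they covered 300 and 0 in WT UUO, 300 and 31 in ACSS2-/- UUO and 0 in control. At Coro1a, at chr7:126704767-126705066 on the minus strand, they covered 300 in both WT UUO libraries, 300 and 0 in ACSS2-/- UUO, and 141 and 0 in ACSS2-/- control. At Itgax, at chr7:128129300-128129599 on the plus strand, they covered 289 bases in WT UUO replicate 1 and none elsewhere. Coro1a and Itgax had none of the 3 motifs.
Laptm5: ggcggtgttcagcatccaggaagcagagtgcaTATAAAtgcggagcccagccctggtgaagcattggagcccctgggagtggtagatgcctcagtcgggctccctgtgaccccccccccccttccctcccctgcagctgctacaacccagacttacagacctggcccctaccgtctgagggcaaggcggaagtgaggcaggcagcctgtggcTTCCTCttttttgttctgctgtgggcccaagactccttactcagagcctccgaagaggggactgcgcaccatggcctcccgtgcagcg
Fcgr1: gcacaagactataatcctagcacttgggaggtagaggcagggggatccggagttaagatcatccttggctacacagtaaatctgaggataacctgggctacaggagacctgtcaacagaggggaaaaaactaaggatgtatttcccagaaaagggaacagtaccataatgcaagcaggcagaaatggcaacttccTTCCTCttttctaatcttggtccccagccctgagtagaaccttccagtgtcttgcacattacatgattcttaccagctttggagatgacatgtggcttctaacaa
Coro1a: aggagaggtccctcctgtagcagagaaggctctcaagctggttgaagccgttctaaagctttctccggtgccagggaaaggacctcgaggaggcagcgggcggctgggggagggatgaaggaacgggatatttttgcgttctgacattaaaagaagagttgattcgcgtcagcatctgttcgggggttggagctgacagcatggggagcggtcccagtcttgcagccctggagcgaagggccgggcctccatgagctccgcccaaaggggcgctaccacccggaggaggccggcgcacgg
Itgax: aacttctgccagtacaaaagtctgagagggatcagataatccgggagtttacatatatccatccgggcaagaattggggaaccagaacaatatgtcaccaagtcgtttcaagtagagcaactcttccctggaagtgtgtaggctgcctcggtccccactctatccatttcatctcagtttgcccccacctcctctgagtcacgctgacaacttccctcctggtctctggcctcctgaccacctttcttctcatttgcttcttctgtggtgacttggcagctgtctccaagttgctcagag

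Of 48 other myeloid genes, 12 had more H3K9cr in every UUO library and 0 had less, with 1.54% and 8.81% of protein-coding genes, and the largest differences were at Il10ra, Cd74, Runx1 and Ikzf1. Il10ra, a receptor chain for interleukin 10, had 6704 and 4697 bases in WT UUO, 5668 and 1921 in ACSS2-/- UUO and 0 in control kidneys. In UUO, 21 of the 48 had less H3K9cr in both ACSS2-/- libraries and 0 had more, with 16.4% and 5.43% of protein-coding genes. Cybb, the catalytic subunit of the same oxidase as Ncf4 and Cyba, had no peak in any library, nor had Cd33, Fpr1, Fpr2 and Alox5. Of 14 neutrophil granule genes, 7 had no peak in any library, Mpo, Ctsg, Camp, Mmp8, Retnlg, Cxcr2 and Ly6g. Of these 14, Lcn2 alone had more H3K9cr in UUO, with 1223 to 3125 bases against 889 to 1077, and it is a gene of injured tubules as well. Of 12 lipid-associated macrophage genes, Lgals3 had more and Lipa and Plin2 had less.

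Markers of other cell types also differed between UUO and control kidneys. Of 15 proximal tubule markers, 11 had less H3K9cr in every UUO library and none had more, with 8.81% and 1.54% of protein-coding genes, and 12 had less H3K9ac, with 30%. Slc5a12, a lactate transporter, had 2869 to 4839 bases of H3K9cr in control and 0 in all UUO libraries. The summed cover of this list was 42.9, 41.3, 61.4 and 39.2 kb in the WT and ACSS2-/- control H3K9cr libraries and 14.2, 7.39, 13.3 and 17.1 kb in the WT and ACSS2-/- UUO ones, with Slc27a2 the most covered gene per window length. Of 20 T and NK cell markers, Cd3d and Zap70 had more H3K9cr in UUO and none had less, against the same 1.54% and 8.81%. Cd3d, a chain of the T cell receptor complex, had 4460 and 4959 bases in WT UUO, 615 and 402 in ACSS2-/- UUO and 0 in control. The summed cover of the T and NK cell list was 26.6 and 30 kb in WT UUO, 5.26 and 3.96 kb in ACSS2-/- UUO and 2.24 to 4.59 kb in control H3K9cr libraries, with Cd3d the most covered gene per window length and Gzma, Ncr1, Klrb1c and Foxp3 at 0 throughout. In UUO, 13 of these 20 had less H3K9cr in both ACSS2-/- libraries and 0 had more, with 16.4% and 5.43% of protein-coding genes. The part of either cell type in the values of the macrophage and neutrophil genes was not tested.

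Of 10 B cell markers, Ebf1 had less H3K9cr in UUO, and 5 had no peak in any library, Ms4a1 and Pax5 among them. Kcnj1 had less among 14 distal nephron markers, and Kdr and Cdh5 among 10 endothelial markers, against 8.81% of protein-coding genes. All 10 endothelial and 7 of the 14 distal nephron markers had less H3K9ac in UUO, against 30%. None of 8 podocyte markers and none of 10 fibroblast and myofibroblast markers separated the groups in H3K9cr.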

How the data were processed

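Per the study's methods, the authors cleaned the reads, aligned them with Bowtie2 (mm10 per the labels), removed duplicates and poorly mapped reads, and called peaks in each library with MACS2 at a fixed q-value. ChIPseeker is also named. The sources used here give no versions and no MACS2 control. The deposited lists give positions in 1 list per library, with no score, and antibody catalogue numbers in the labels go up by 1 from group to group, so whether the antibodies differed is not known. Replicates are separate libraries, and p-values measure the spread between them. Tests of UUO against control, and of the marks in UUO, permuted libraries without regard to genotype. There the spread includes any difference between the genotypes.

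RefSeq genes of GRCm38.p6, the same assembly as mm10, were used without strand unless stated. A median of 42.4% of peaks lay within 500 bp of a gene end, against 12.8% after all peaks were moved along the chromosome. Cover was summed within 3 kb of both gene ends without any filter, and overlapping windows were merged. Exact permutation tests of mean cover ran over all protein-coding genes with Benjamini-Hochberg adjustment. Members, role lists and marker lists were chosen with earlier results of these data known. Genes named were Acss2, members without overlap between UUO and control in H3K9cr, defining genes, members without peaks, members that differed between genotypes, and at most 4 genes of each other list by largest difference. Other members, and genes of other lists without peaks, were named after their values were seen. Scripts ran in Python 3.11.15 (pandas 2.3.3, numpy 2.4.6, SciPy 1.17.1, matplotlib 3.10.9). Overlaps were checked on simulated data and against bedtools 2.31.1, from which 0 of 17486 real values differed. Alternatives changed the window, unit, peak number, libraries and pairing.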

Additional observations from a re-analysis of the deposited data

Results flagged for a closer look

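Values far from the other 3 of their group were sought in H3K9cr of UUO and of control kidneys and in H3K9ac of UUO kidneys, with the genotypes pooled, by Dixon's ratio. Of 57 sets of 4 values, 7 passed its cut-off, which chance passes in about 1 in 20 sets of normal values. That rate does not hold here, since the ratio is 1 wherever 3 of 4 values are 0, as at Laptm5, Cd52 and Adgre1. In control H3K9cr, 4 of the 7 were ACSS2-/- control replicate 1, the library with the longest list. It covered 55.3 kb over the members, 705 bases at Laptm5, 1556 at Coro1a and 418 at Cd52, where the other 3 control libraries had 0 to 60 bases at these 3 genes. In H3K9ac after UUO, ACSS2-/- UUO replicate 2 was far above the rest at Adgre1, with 797 bases, and at Fcgr1, with 2041. WT UUO replicate 2 was far above the rest at Itgax, with 2132 bases.

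The effects of UUO on H3K9cr pointed in opposite directions in the genotypes at Itgb2 and Folr2, 2 of the 53 genes, against 4.24% of all protein-coding genes, and at 0 when cover was divided by the length of the list. The effect in WT minus that in ACSS2-/- was 1913 bases for Itgb2 and 504 for Folr2, each with a two-sided exact permutation p of 0.0556 before adjustment, the smallest possible, so that neither passed a threshold of 0.05. Cd68, with 2124 bases, and Cebpa, with -487, reached the same p, but their UUO and control ranges overlapped in ACSS2-/- kidneys. The sums for Itgb2 join both gene ends: at the lower-numbered end, UUO libraries of both genotypes had peaks and control libraries none. Folr2 had no peak around its start in any library.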

How the results depend on the processing

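Of 144 comparisons of a result with an alternative setting, 75 stayed within 1.5 times or 1 SD and 69 moved. By share of the list, the balance of higher and lower genes turned for H3K9ac in ACSS2-/- UUO and for H3K9cr in ACSS2-/- control kidneys. At the gene start only the 37 members of known strand were scored, 7 of them among the 11 with more H3K9cr in UUO, of which 6 kept groups without overlap. Counts among genes with a window of their own only drop members and leave their values as they were. Counts below are of listed genes, with the share of all protein-coding genes in brackets where it was scored anew, and the cause of each shift was not tested.

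For H3K9cr higher in UUO (11 in the report), the count was 6 (1.45%) at the gene start, 6 (1.53%) with equal numbers of the longest peaks, 17 (10.9%) by share of the list, 5 (0.704%) by number of peaks, 7 with own windows and 26 (14.7%) in WT only. For H3K9cr lower (0), it was 1 (5.74%) with windows of 1 kb, 1 (16%) in WT only and 3 (33%) in ACSS2-/- only. For H3K9ac higher in UUO (4), it was 13 (18.9%) by share, 2 (0.594%) by peaks, 2 with own windows, 13 (3.3%) in WT only and 10 (1.11%) in ACSS2-/- only. For H3K9ac lower (4), it was 0 (28.6%) at the start, 0 (4.21%) by share, 1 (3.33%) by peaks, 2 with own windows, 8 (48.7%) in WT only and 10 (53.8%) in ACSS2-/- only.

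For H3K9cr lower in ACSS2-/- UUO (14), the count was 9 (15%) with 1 kb, 6 (16.1%) at the start, 3 (2.22%) by peaks and 8 with own windows. For higher (2), it was 0 (5.43%) with 1 kb, 1 (5.19%) at the start, 1 (5.14%) over the whole gene, 1 (5.21%) with the longest peaks, 1 (12.8%) by share, 1 (1.81%) by peaks and 1 with own windows. For H3K9ac lower in ACSS2-/- UUO (2), it was 1 (2.13%) with 1 kb, 1 (1.76%) at the start, 5 (12%) by share, 0 (1.11%) by peaks and 0 with own windows. For higher (8), it was 2 (16.2%) with 1 kb, 2 (7.38%) by share, 1 (2.58%) by peaks and 4 with own windows. In control kidneys, H3K9cr lower (1) was 7 (24.4%) by share and 0 (1.64%) by peaks, and higher (9) was 4 (20.4%) with 1 kb, 4 (23%) at the start, 4 (4.86%) by share, 0 (2.99%) by peaks and 3 with own windows. H3K9cr above H3K9ac (3) was 1 (1.51%) by share, 1 (1.12%) by peaks, 26 (34.1%) in WT only and 6 (10.9%) in ACSS2-/- only. Genes with H3K9cr in all UUO and no control libraries (4) were 2 (0.389%) at the start and 11 (2.01%) in WT only. The difference in genes with an H3K9cr peak (13.75) was 8 with own windows. Opposite UUO effects (2) were 0 (4.16%) at the start, 0 (3.03%) by share, 0 (0.242%) by peaks and 1 with own windows.

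Ranges can only narrow when a library is left out, so these counts could only stay or grow, and they do not show stability. With 1 library left out at a time, H3K9cr in UUO was higher at 11 to 19 (1.7% to 4.1%) and lower at 0 to 1 (9.3% to 13.5%), and H3K9ac was higher at 4 to 9 (0.242% to 1.65%) and lower at 4 to 9 (30.3% to 52.9%). In ACSS2-/- UUO, H3K9cr was lower at 14 to 27 (20.6% to 35.8%) and higher at 2 to 11 (8.5% to 20.7%), and H3K9ac lower at 2 to 13 (2.07% to 17.5%) and higher at 8 to 26 (19.8% to 49.5%). In ACSS2-/- control kidneys, H3K9cr was lower at 1 to 5 (5.96% to 12.3%) and higher at 9 to 19 (31.5% to 42.3%). H3K9cr was above H3K9ac at 3 to 11 (6.6% to 16.7%), gained peaks were at 4 to 7 (0.471% to 0.882%), and opposite effects at 2 to 7 (5.71% to 10.6%). The difference in genes with a peak was 11.75 to 16.08 for H3K9cr and 6 to 9.667 for H3K9ac.

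The labels do not say that replicate numbers pair the samples, and correlations of the replicate differences were mixed. Between control and UUO H3K9cr they were -0.03 in WT and 0.14 in ACSS2-/-. Between the genotypes they were 0.22 for UUO H3K9cr, 0.25 for UUO H3K9ac and -0.08 for control H3K9cr. Between the marks in UUO they were -0.09 in WT and -0.40 in ACSS2-/-. With the replicate block, H3K9cr was lower in UUO at 1 (15.5%) listed gene, and H3K9ac was higher in UUO at 17 (3.19%) and lower at 7 (44.2%). With the same replicate block, H3K9ac was lower in ACSS2-/- UUO at 5 (3.87%) and higher at 13 (29%), H3K9cr was lower in ACSS2-/- control at 2 (5.04%), and H3K9cr was above H3K9ac at 6 (10.5%). With the ACSS2-/- pairs crossed in the replicate block, it was above at 9 (15%). Alternatives chosen after seeing the data were this crossing, libraries with Y chromosome peaks only, with 26 (7.36%) higher in H3K9cr in UUO and 11 (1.32%) gained, and libraries whose peak names carry the number of the label, with 1 (20%) lower. Peak lists carry no heights, so a stricter threshold could be tried only through peak length, and read depth is unknown.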
